A study of Mus musculus with 50 samples.

Results

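The proteasome is the protease that degrades ubiquitin-tagged proteins, and the genes described here encode its subunits, activators, inhibitor and assembly factors. They were chosen by symbol: every protein-coding gene of the deposited table whose symbol is Psm followed by a letter from a to g and a number. The rule used no measured value, and it found 48 of the 35750 genes in the table. All 48 passed the filter on low values in each comparison.

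Peptides are cleaved inside the 20S core particle, a stack of outer rings of alpha subunits (Psma genes) around inner rings of beta subunits (Psmb genes), of which Psmb5, Psmb6 and Psmb7 carry the active sites. The 19S particle caps the core: its base holds the ATPases (Psmc genes) that unfold substrates, and its lid (several Psmd genes) removes ubiquitin. Other caps (Psme genes) open the core without ubiquitin, and dedicated chaperones (Psmd5, Psmd9, Psmd10 and the Psmg genes) assemble both particles. The embryo clears many proteins laid down in the egg while it starts its own transcription, and ubiquitin-dependent degradation by the proteasome is a known route for this.

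All embryos were wild type C57BL6/J, from superovulated females of 3 to 12 weeks. Zygotes were left uninjected, or were injected 24 h after hCG (the hormone that sets ovulation) with 200 ng/µl of mRNA. That mRNA encoded either mCherry with a nuclear signal (mCherry embryos) or Duxbl with a V5 tag joined through a 2A sequence to the same nuclear mCherry (Duxbl embryos). Collection times after hCG were 28 to 30 h for 1-cell embryos (late 1C), 32 h for the first 2-cell sample (early 2C) and 48 h for the later 2-cell sample (late 2C). Uninjected and mCherry embryos gave 6 libraries at each stage, and Duxbl embryos gave 4, 5 and 5. Each tube held 5 pooled embryos, and the labels do not say whether tubes came from separate females or days, so the p-values measure only the spread between tubes. Duxbl came from mRNA injected into the zygote, on top of the embryo's own gene.

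The sum of deposited values in a library lay between 22.5 and 26.96 M for late 1C, between 22.3 and 26.4 M for early 2C, and between 12.04 and 22.5 M for late 2C. They are scaled values rather than reads, so they give no depth. Values are printed as CPM, deposited values per 1000000 of the scaled library size, and differences are on the log2(CPM + 1) scale with the standard error of the fit. Duxbl1 stood at 1374 to 4816 CPM in Duxbl embryos and at 82.7 to 642 CPM in all others, so its level separated the groups as labelled. The uninjected and mCherry libraries numbered 4 and 5 at late 2C had summed proteasome levels between 3333 and 4068 CPM, at the low end of their groups. Library 4 of the Duxbl embryos at late 2C correlated least with its group (median r 0.852 across genes, against 0.888 to 0.904 for the others). Values are relative to library size, so fewer cells of a type, less RNA per cell and a larger share of other RNA cannot be told apart in these pools.

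The 8 oocyte and embryo markers were all present in every group. At late 2C their summed level was 3763 to 4888 CPM in Duxbl embryos, 987 to 1737 in mCherry embryos and 904 to 1941 in uninjected embryos. Zp3 alone among them went the other way, with means of 52.5, 94.0 and 101 CPM. The summed level of 7 genes of the 2-cell stage was 15.4 to 149.8 CPM, 866 to 3359 CPM and 693 to 2680 CPM in the same order. When summed, both lists separated the Duxbl libraries from all controls at late 2C, and their part in the proteasome results was not tested. Markers of other cells were also summed at late 2C. Those of cumulus and granulosa cells (8 of 9 in the table) summed to 14.0 to 54.4 CPM in Duxbl, 10.2 to 18.0 in mCherry and 7.20 to 23.9 in uninjected embryos. Inha, 1 of the 8, was at 0 in all of the Duxbl and mCherry libraries of that stage. Others differed in their means between Duxbl and mCherry embryos. Cyp19a1 held 17.9 and 3.98 CPM, Has2 5.97 and 0.884, Foxl2 3.48 and 1.42, and Ptx3 1.03 and 0.120. Tnfaip6 went the other way, at 1.90 and 6.30 CPM. The 5 oviduct markers summed to 74.8 to 177, 46.7 to 157 and 41.5 to 158 CPM, the 5 sperm markers to 3.43 to 31.3, 3.20 to 9.87 and 1.87 to 6.59 CPM, and the blood markers (3 of 5 in the table) to 0 to 5.39, 10.6 to 21.0 and 7.08 to 25.5 CPM. Among the oviduct markers Ovgp1 had means of 51.5 CPM in Duxbl and 5.97 CPM in mCherry embryos, and Epcam 71.8 and 98.3 CPM. The part of these markers of other cells was not tested either.

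From late 1C to early 2C few proteasome genes were called in uninjected embryos. In limma, 6 of 48 (12.5%) fell and none rose, against 2.9% of all genes tested, 1.12% higher and 1.78% lower. The 6 were Psmb7, a catalytic subunit (-1.64 ± 0.32), the lid subunits Psmd6 (-1.09 ± 0.21), Psmd12 (-1.07 ± 0.24) and Psmd7 (-0.97 ± 0.21), the base scaffold Psmd1 (-0.98 ± 0.25) and the alpha subunit Psma7 (-1.03 ± 0.21). Their adjusted p ran from 6.03e-04 (Psmb7) to 0.0140 (Psmd1). The Psmd1 call was lost without uninjected early 2C library 5 (-0.81, adjusted p = 0.0849), and a fit of the compared groups alone called 12 lower and 1 higher. Without the libraries numbered 4 and 5 limma called 4 lower. Psmd1 (-0.63, adjusted p = 0.447) and Psma7 (-0.79, adjusted p = 0.0566) were then lost. The median over the 48 genes was -0.21, and over all genes 0.01.

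Between early 2C and late 2C uninjected embryos changed most of the set. Of the 48 genes, 23 rose and 15 fell (79.2%), where 57.1% of all genes tested were called, 30.8% higher and 26.3% lower. The median was 0.44, against 0.03 over all genes. It moved with the scaling, to 0.23 on the deposited scale (18 higher, 16 lower), 0.73 with median-of-ratios scaling (26 and 15) and 0.81 with library totals (26 and 14). The roles differed in their counts. In the beta ring 4 of 7 rose and 2 fell. In the alpha ring 3 of 7 rose and 2 fell. The lid had 6 of 8 higher and none lower, while all 3 non-ATPase subunits of the base fell. Of the 5 subunits known from particular tissues 4 rose, and the inhibitor Psmf1 fell.

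Psmb5 (ENSMUSG00000022193, mm39 chromosome 14, 54851576 to 54855479, minus strand) encodes the subunit with chymotrypsin-like activity. Its 6 uninjected libraries held a lowest of 2.21, a median of 2.98 and a highest of 4.36 CPM at early 2C. At late 2C they held a lowest of 37.9, a median of 116 and a highest of 181 CPM. The stages did not overlap, and the rise of 4.51 ± 0.34 was the largest of the 48 (adjusted p = 2.50e-16). Psmb6, the subunit with caspase-like activity, went the other way: it held 348 to 613 (median 402) CPM at early 2C and 98.4 to 208 (median 179) CPM at late 2C, a fall of 1.40 on the log2 scale (adjusted p = 1.13e-08). Per kilobase of exon, Psmb6 was first of the 48 at early 2C, at 229.5 ± 50.5 CPM per kb (SD, n = 6), and Psmb5 was at 3.47 ± 0.864 CPM per kb. At late 2C Psmb5 stood at 121 ± 67.4 and Psmb6 at 88.0 ± 22.6 CPM per kb, so the gap between these catalytic subunits was smaller than at early 2C.

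The transcripts of immunoproteasome subunits, which replace catalytic beta subunits in immune cells, were near the bottom of the range at early 2C. Psmb10, the counterpart of Psmb7, rose by 4.51 ± 0.34, from 0.354 to 2.75 (median 1.69) CPM to 27.8 to 87.3 (median 57.2) CPM. Psmb9 rose by 2.65 ± 0.34 and Psmb8 by 1.57 ± 0.38, but they reached only 7.79 and 2.83 CPM. Psmb11, known from the thymus, was called at 0.95 ± 0.39 (adjusted p = 0.0320) at a mean of 2.48 CPM. That call was lost on the deposited scale, with voom weights, without uninjected early 2C library 6 or 7 and without late 2C library 1, 6 or 7, and its value was 0.62 without late 2C library 7. The testis subunit Psma8 held 0.578 CPM at early 2C and 0.541 CPM at late 2C (-0.12 ± 0.34, not called).

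The activators split in pairs. Psme1 and Psme2, which form 1 ring together, rose by 3.71 ± 0.34 and 4.21 ± 0.37. Psme3, which forms a nuclear ring of its own, fell by 1.57 ± 0.16, and Psme4, a single-chain nuclear cap (PA200), fell by 0.70 ± 0.18. With library totals as the only scaling Psme4 missed the threshold (-0.32, adjusted p = 0.0765). Among the chaperones of the 19S base, Psmd10 (gankyrin) fell by 3.15 and Psmd9 fell by 2.37, while Psmd5 rose by 1.32. Among those of the 20S core, Psmg1 fell by 2.59 and Psmg4 fell by 1.12, while Psmg3 rose by 2.64, as did Psmg2, named after its values were seen, by 1.56.

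**Figure D1:**
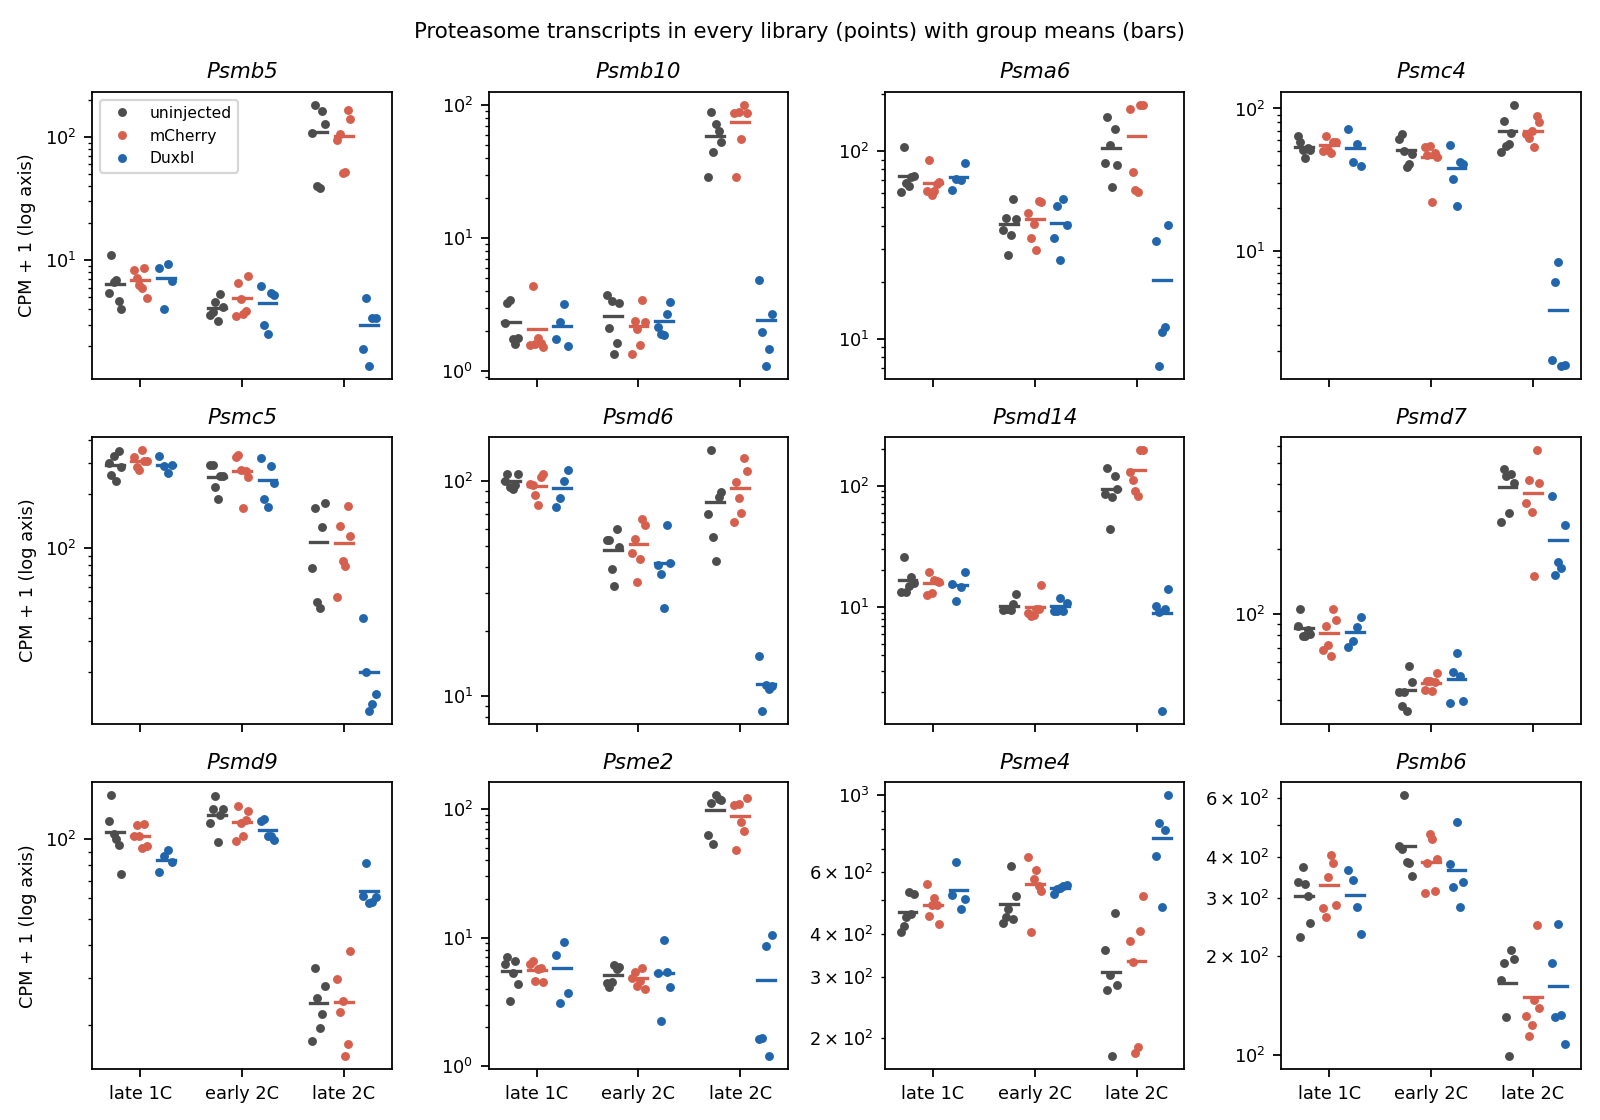
Level of 12 proteasome genes in every library (points, CPM + 1 on log axes) over the 3 stages, with group means as bars, for uninjected (grey), mCherry (red) and Duxbl (blue) embryos. Psmb5, Psmb10, Psmd14 and Psme2 climb at late 2C in both control groups and stay low in Duxbl embryos, Psmc4 and Psmc5 fall below their early 2C level in Duxbl embryos, and Psmd9 and Psme4 are higher there than in the controls.

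Injection itself gave no call. Between mCherry and uninjected embryos limma called none of the 48 genes at any of the 3 stages, where it called 0% of all genes. An unadjusted p under 0.05 was reached by 1 of the 48 at late 1C and by 0 at the later stages, and voom weighting in limma also gave 0. Before late 2C Duxbl mRNA gave none either. Against mCherry embryos 0 of 48 genes were called at late 1C (0.0193% of all genes, 0.00481% higher and 0.0144% lower, with 2 of the 48 at an unadjusted p under 0.05) and 0 of 48 at early 2C (0.42% of all genes, 0.0236% higher and 0.397% lower, with none at an unadjusted p under 0.05), again also 0 with voom weights. The differences ranged from -0.32 to 0.43 at late 1C and from -0.40 to 0.48 at early 2C, with standard errors up to 0.36 and 0.33. Psmb5, Psmc4 and Psmd6 differed by -0.17 ± 0.29, -0.26 ± 0.25 and -0.32 ± 0.22 at early 2C.

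At late 2C most of the proteasome genes were lower in Duxbl than in mCherry embryos. In limma 31 of 48 were lower and 2 higher (68.8%), where 55.7% of all genes tested were called, 29.8% lower and 25.9% higher. The median difference was -1.37 over the 48 genes and -0.09 over all genes. For 26 of the 48 the 5 Duxbl and 6 mCherry libraries did not overlap (54.2%), 25 of them lower. Of all 23052 genes tested 34.6% did not overlap, 4528 of them lower and 3452 higher. The summed level of the 48 genes was 2768 ± 234 CPM in Duxbl embryos (SD, n = 5), 4966 ± 1251 CPM in mCherry embryos (SD, n = 6) and 4800 ± 1101 CPM in uninjected embryos (SD, n = 6). Its ranges did not overlap: the highest Duxbl library held 3050 CPM and the lowest mCherry library 3333 CPM.

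**Figure D2:**
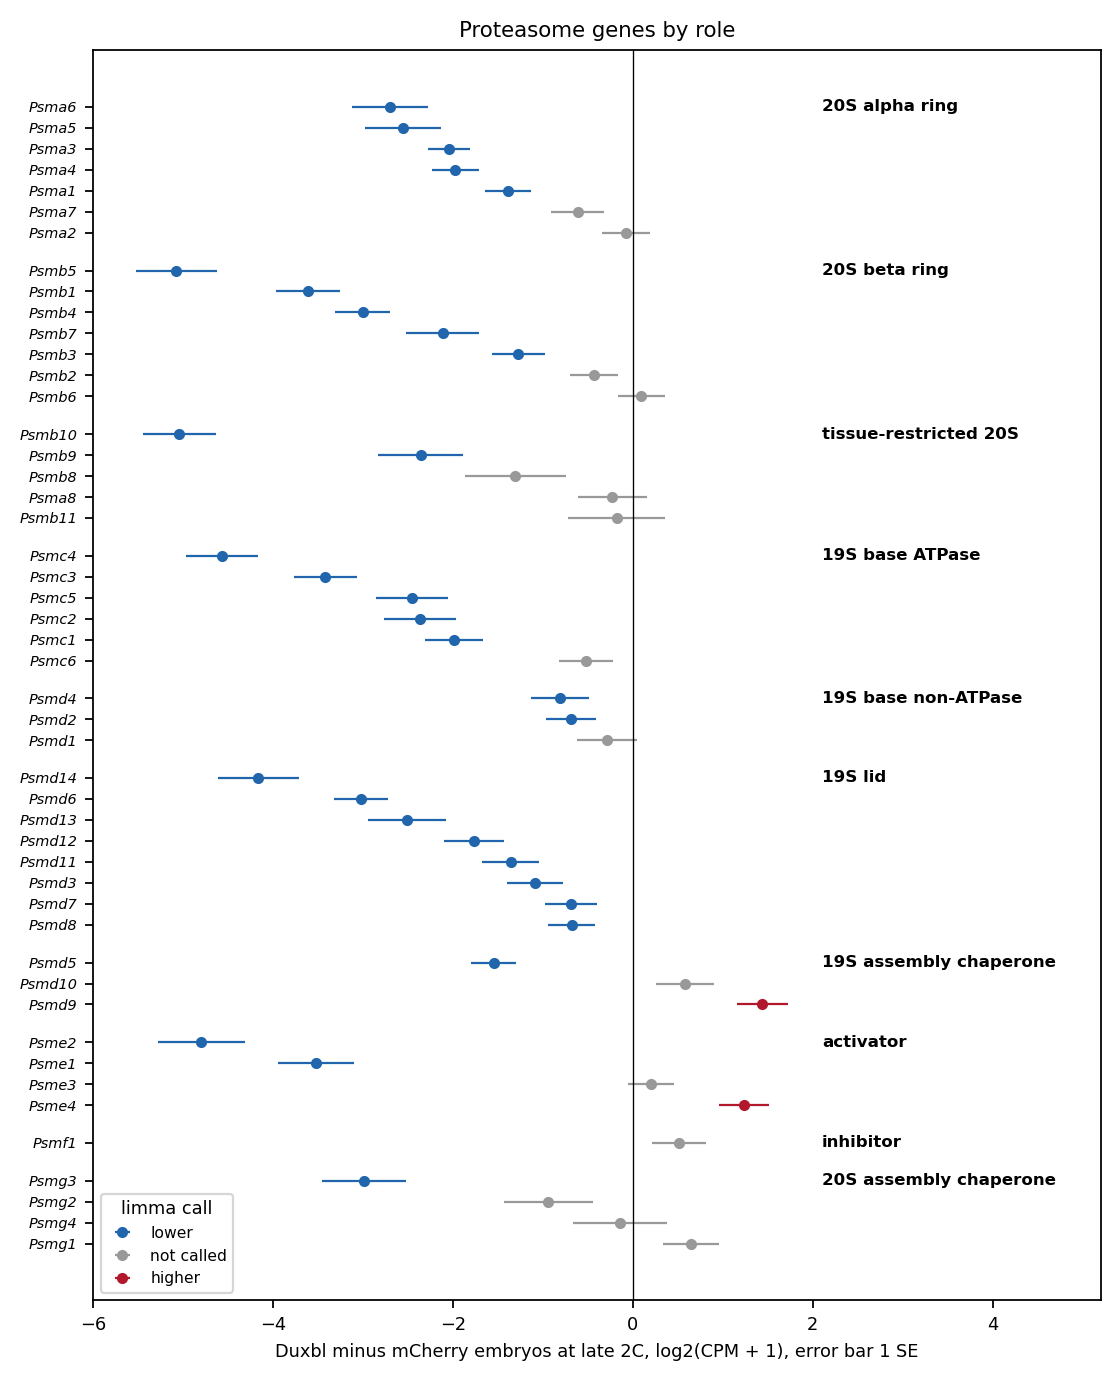
Difference between Duxbl and mCherry embryos at late 2C for each of the 48 genes (points, log2(CPM + 1) scale) with 1 standard error of the limma fit, grouped by role and coloured by call. Every lid subunit lies left of 0, from Psmd14 at -4.16 to Psmd8 at -0.68, and the 2 genes called higher are Psmd9 at 1.44 and Psme4 at 1.24.

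In the core, 5 of 7 alpha and 5 of 7 beta subunits were lower, with medians of -1.97 and -2.11, where 29.8% of all genes tested were lower. Psmb5 was at 0.899, 3.91, 0.391, 2.43 and 2.39 CPM in Duxbl libraries 1, 3, 4, 6 and 7, the order used throughout. The 6 mCherry libraries held a lowest of 49.7, a median of 98.7 and a highest of 163 CPM. Every Duxbl library was below every mCherry library, with a difference of -5.07 ± 0.45 (adjusted p = 4.71e-09). Psmb1, Psmb3 and Psmb4, structural subunits of this ring named after their values were seen, were lower, at -3.61, -1.27 and -3.00, without overlap. Psmb2, also structural, was at -0.43 ± 0.27, not called, and its groups overlapped (92.9, 86.2, 78.5, 76.4 and 122 CPM against 85.3 to 195 CPM). The other catalytic subunits, compared side by side without a test between genes, differed in size: Psmb7, with trypsin-like activity, was at -2.11 ± 0.41 (adjusted p = 1.47e-04), and Psmb6 was at 0.09 ± 0.26, not called (adjusted p = 0.779). Psmb6 held 189, 130.0, 248, 132 and 107 CPM in Duxbl embryos and 114 to 247 (median 134) CPM in mCherry embryos, and the groups overlapped.

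Psma6 had the largest difference of the alpha ring. It held 32.0, 6.16, 9.87, 10.6 and 39.4 CPM in Duxbl embryos. In mCherry embryos it held a lowest of 59.5, a median of 121 and a highest of 175 CPM. The groups did not overlap (-2.70 ± 0.42, adjusted p = 1.20e-05). Psma3 differed by -2.04 ± 0.23, all 5 called members of the ring were without overlap, and the uncalled members of this ring were Psma2 (-0.08 ± 0.26) and Psma7 (-0.61 ± 0.30). Psma5 was called lower (-2.55 ± 0.43) and is singled out for an entry named as its pseudogene. That entry, Psma5-ps, held 27.5 CPM in mCherry and 3.85 CPM in Duxbl embryos. The counting could have split reads between Psma5 and Psma5-ps, and their sequences were not compared.

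Of the subunits known from particular tissues, 2 of 5 were lower, where 29.8% of all genes tested were. With 5 genes this count is a description. Psmb10 (mm39 chromosome 8, 106662367 to 106665076, minus strand) held 3.83, 0.978, 0.0977, 0.466 and 1.72 CPM in Duxbl embryos. It held a lowest of 27.9, a median of 86.7 and a highest of 99.8 CPM in mCherry embryos. All Duxbl libraries lay below all mCherry libraries, and the difference of -5.04 ± 0.40 had the smallest adjusted p of the set (1.08e-09). Psmb9 differed by -2.36 ± 0.47. Psmb8 at -1.30 ± 0.56 (adjusted p = 0.0537), Psma8 at -0.23 ± 0.38 and Psmb11 at -0.18 ± 0.54 were not called, all at mean levels under 4 CPM in both groups.

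Among the 6 ATPases of the 19S base 5 were lower, with a median of -2.41, where 29.8% of all genes tested were lower. Psmc6, named after its value was seen, was not called (-0.52 ± 0.30). Psmc4 (ENSMUSG00000030603, mm39 chromosome 7, 27741132 to 27749526, minus strand) held 0.710, 5.04, 7.38, 0.560 and 0.587 CPM in Duxbl embryos. The mCherry libraries held a lowest of 52.6, a median of 67.0 and a highest of 87.5 CPM. No library overlapped, and Duxbl libraries 1, 6 and 7 were under 1 CPM (-4.56 ± 0.40, adjusted p = 4.33e-09). Psmc3 differed by -3.42 ± 0.35 and Psmc5 by -2.45 ± 0.40, both also without overlap. The other called ATPases, Psmc1 and Psmc2, were at -1.98 and -2.37. Of the base scaffolds and ubiquitin receptors, Psmd4 (-0.81 ± 0.32, adjusted p = 0.0367) and Psmd2 (-0.68 ± 0.28, adjusted p = 0.0422) were called lower and Psmd1 was not (-0.29 ± 0.33). Both calls sat near the threshold: they were lost on the deposited scale, without the filter on low values, and without mCherry library 3, 6 or 7 or Duxbl library 1, 6 or 7 (Psmd4 to an adjusted p of 0.0986, Psmd2 also without mCherry library 1 or Duxbl library 3, to 0.109).

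The lid was the role in which every subunit was called lower, 8 of 8, with a median of -1.56, where 29.8% of all genes tested were lower. The 8 of 8 did not hold under the settings, given below, that lost the Psmd7 call. Psmd14, the enzyme that removes ubiquitin chains, held 9.27, 8.02, 0.391, 8.67 and 13.1 CPM in Duxbl embryos. It held a lowest of 81.0, a median of 119 and a highest of 196 CPM in mCherry embryos. Duxbl library 4 was far below its group, and the other 4 were still below every mCherry library (-4.16 ± 0.45, adjusted p = 9.30e-08). Psmd6 (ENSMUSG00000021737, mm39 chromosome 14, 8348779 to 8357589, plus strand), a scaffold of the lid, held 14.3, 7.48, 10.2, 9.70 and 10.1 CPM against a lowest of 63.9, a median of 90.3 and a highest of 127 CPM. Its groups did not overlap (-3.02 ± 0.30, adjusted p = 1.93e-08). Psmd7, the partner of Psmd14, was singled out after its values were seen: with 219 against 361 CPM it was called at -0.69 ± 0.29 (adjusted p = 0.0456), its groups overlapped, and the call was lost on the deposited scale, without the filter, and without any of mCherry libraries 1, 3, 6 and 7 and Duxbl libraries 3, 4 and 6. The remaining lid subunits Psmd12 (-1.76), Psmd11 (-1.36), Psmd3 (-1.08) and Psmd8 (-0.68) had differences under 2 on this scale, and the groups of Psmd3 and Psmd8 overlapped. The calls of Psmd3, Psmd8 and Psmd11 were not followed one by one through the other settings. Psmd13 (-2.51 ± 0.44) is uncertain because the processed pseudogene Gm15542 lies inside it and had the higher mean level.

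The chaperones of the 19S base moved apart. Psmd9 (mm39 chromosome 5, 123307476 to 123388194, plus strand) was higher, at 60.2, 80.8, 56.7, 57.0 and 60.0 CPM in Duxbl embryos. It had a lowest of 14.3, a median of 22.5 and a highest of 37.0 CPM in mCherry embryos. Each Duxbl library was above each mCherry library (1.44 ± 0.28, adjusted p = 1.77e-04). Psmd9 overlaps Hpd on the opposite strand, and the kits do not mark strand. Psmd5 was lower, by 1.55 on the log2 scale (104, 52.6, 68.5, 67.8 and 79.6 CPM against 134 to 299 CPM), with no overlap. Psmd10 was at 0.58 ± 0.33, not called.

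Activators split again. Psme4 (mm39 chromosome 11, 30721726 to 30830361, plus strand) was higher: its 5 Duxbl libraries held 669, 832, 477, 792 and 1000.4 CPM. The mCherry libraries held a lowest of 180.2, a median of 356 and a highest of 512 CPM. The difference was 1.24 ± 0.28 (adjusted p = 6.31e-04), and only Duxbl library 4 lay within the mCherry range. Psme4 made up 27.3% of the summed proteasome level in Duxbl embryos, 6.70% in mCherry and 6.43% in uninjected embryos at late 2C. These shares used CPM not divided by exon length, so long transcripts count for more in them. Psme2 held 0.615, 0.636, 7.52, 0.186 and 9.39 CPM in Duxbl embryos against a lowest of 47.5, a median of 93.7 and a highest of 121 CPM in mCherry embryos, with no overlap (-4.79 ± 0.48, adjusted p = 3.17e-08). Psme1, 5911 bases from Psme2 on chromosome 14 and overlapped by the gene Emc9, differed by -3.52 ± 0.42. Psme3 was at 0.20 ± 0.25 and the inhibitor Psmf1 at 0.51 ± 0.30, neither called. Among the chaperones of the core Psmg3 was lower (-2.99 ± 0.47, adjusted p = 1.23e-05), and Psmg1 (0.65 ± 0.31), Psmg2 (-0.94 ± 0.49) and Psmg4 (-0.14 ± 0.52) were not called.

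Within Duxbl embryos the course from early to late 2C was tested directly. There 29 of 48 genes fell and 2 rose (64.6%), where 38.9% of all genes were called, 18.7% lower and 20.3% higher. With median-of-ratios scaling 25 fell and 5 rose. The median was -0.82, against 0.01 over all genes. All 6 ATPases and all 3 other base subunits fell, with 6 of 7 alpha and 4 of 7 beta subunits. The Psmc6 call (-0.60 ± 0.22) was lost with median-of-ratios scaling (-0.35), with library totals, without Duxbl early 2C library 3 or 6 and without late 2C library 3 or 6. Psmc4 fell by 3.63 ± 0.31, from 54.7, 31.0, 19.7, 40.9 and 39.7 CPM at early 2C, without overlap. Psmc5, another ATPase, fell by 3.68 ± 0.29, from 317, 185, 168, 288 and 229 CPM to 39.4, 18.9, 11.1, 12.2 and 14.0 CPM. In uninjected embryos Psmc5 had fallen by 1.39 and Psmc4 was at 0.42 ± 0.28, not called.

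For other genes no change was called in Duxbl embryos. Psmb5 was at -0.63 ± 0.38, Psmb10 at -0.15 ± 0.37, Psme1 at -0.13 ± 0.37, Psme2 at -0.63 ± 0.40 and Psmd14 at -0.52 ± 0.34, none called. These had risen by 3.11 to 4.51 in uninjected embryos. Psmb5, Psmb10, Psme1 and Psme2 were already low in Duxbl embryos at early 2C. They held 1.55 to 5.23, 0.884 to 2.34, 0.0872 to 1.00 and 1.22 to 8.58 CPM in that order. This left little room for a fall on the log2(CPM + 1) scale. Psmd7 did rise in Duxbl embryos, by 2.09 ± 0.23 (adjusted p = 1.35e-10), from 38.0, 52.8, 65.4, 50.5 and 38.6 CPM to 353, 150.0, 174, 162 and 258 CPM, with no overlap. The other call upward, Psmd13 at 1.00 ± 0.39, was lost without Duxbl late 2C library 4 (0.53, adjusted p = 0.266), late 2C library 1 or early 2C library 3 or 5, and with several other settings. Psme4 was at 0.44 ± 0.20, not called (adjusted p = 0.0780), where it had fallen in uninjected embryos. Over the earlier interval, late 1C to early 2C, 4 of 48 genes fell in Duxbl embryos (8.33%, against 0.92% of all genes, 0.0833% higher and 0.837% lower), namely Psmb7 (-1.55), Psmd12 (-1.32), Psmd6 (-1.20) and Psma7 (-0.99). Leaving out 1 library gave 1 to 4 calls there: 1 without Duxbl early 2C library 5, and 2 without late 1C library 6 or 7 or early 2C library 4. A fit of the compared groups alone called 9 lower there. Leaving out the libraries numbered 4 and 5 gave 0, with only libraries 6 and 7 left at late 1C and 3, 6 and 7 at early 2C. Psmb7 was then at -1.47, Psmd12 at -1.17, Psmd6 at -1.17 and Psma7 at -0.74.

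The change of the Duxbl difference between early and late 2C was tested as an interaction. It was called for 32 of 48 genes (66.7%, against 44.9% of all genes, 21.3% higher and 23.6% lower), 29 lower and 3 higher, with a median of -1.40 against 0.01 over all genes. The 3 higher genes were Psmd9 (1.53 ± 0.25, adjusted p = 1.55e-06), Psme4 (1.26 ± 0.27, adjusted p = 1.45e-04) and Psmg1 (0.70 ± 0.29, adjusted p = 0.0445). The Psmg1 call was lost in 18 of the 22 fits that left out 1 library. It was also lost with library totals (0.40, adjusted p = 0.321), median-of-ratios scaling, voom weights, no filter and a fit of the compared groups alone.

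The group means behind the normal course and the Duxbl difference come from libraries that are not shared. The course compares uninjected embryos, and the difference compares Duxbl and mCherry embryos at late 2C. The fits that gave the calls did share libraries in estimating the variance, so the calls crossed here are not independent. Of the 23 genes that rose over the same interval in uninjected embryos, 20 (87.0%) were lower in Duxbl embryos, where the same held for 62.4% of the 8670 genes that rose. The other 3 were Psmb8, Psmb11 and Psmg2, and none was higher. Of the 15 genes that fell, 2 (13.3%) were higher in Duxbl embryos, Psmd9 and Psme4, where 57.1% of the 6670 genes that fell were. Another 3 of the 15 (20%), Psmc5, Psmd2 and Psmd4, were lower in Duxbl embryos, where 4.27% of such genes were, and 10 were not called. Of the 10 genes without a call in the normal course 8 (80%) were lower in Duxbl embryos, Psmc4 among them, where 15.3% of such genes were. Across the 48 genes the difference in Duxbl embryos ran opposite to the normal change (Pearson r -0.79, Spearman rho -0.79), as a description over genes that share the same libraries.

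**Figure D3:**
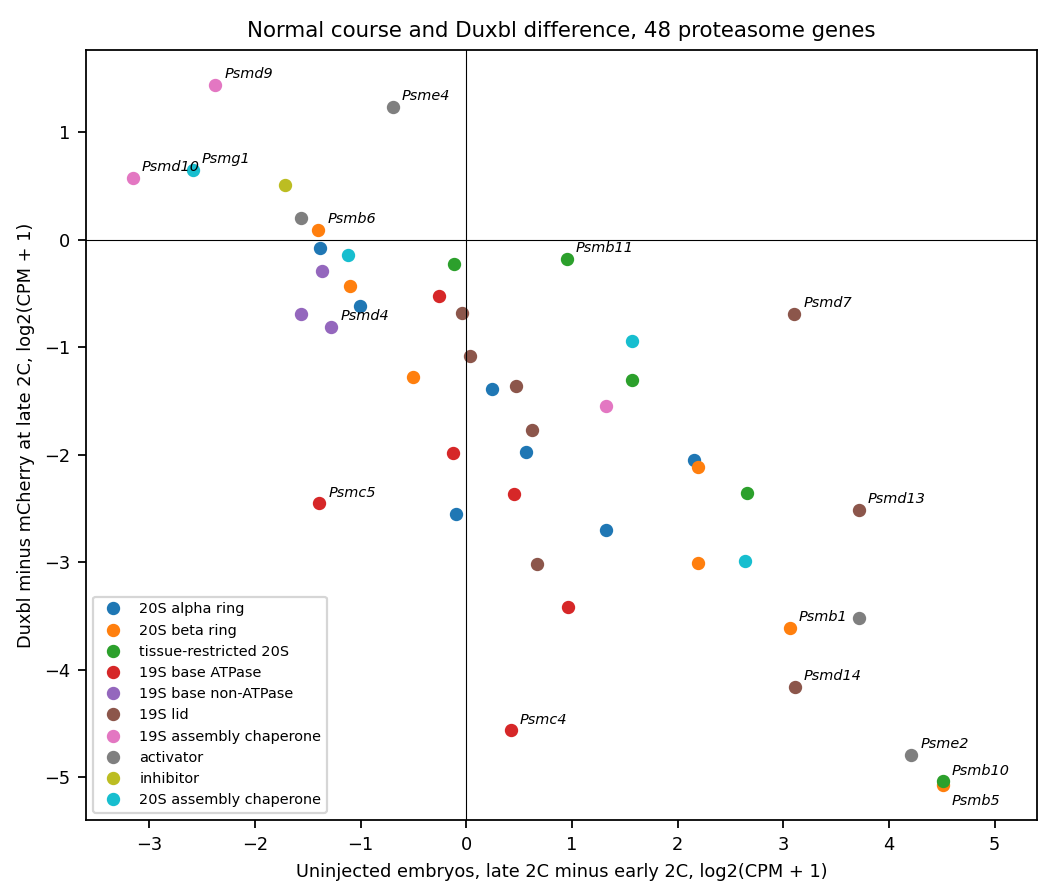
Each point is 1 of the 48 proteasome genes, coloured by role: the change of uninjected embryos between early and late 2C on the horizontal axis and the difference between Duxbl and mCherry embryos at late 2C on the vertical axis, both on the log2(CPM + 1) scale. Psmb5, Psmb10 and Psme2 sit at the lower right, Psmd9, Psmd10 and Psmg1 at the upper left, and Psmc4 and Psmc5 lie well below 0 without a rise in the normal course.

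The 26S particle needs its subunits in fixed proportions, so the spread between the levels of the 31 subunits of the 20S core and 19S particle (constitutive members only) was measured in each library, as the standard deviation of log2((CPM + 1) per kb of exon). In uninjected embryos it was 1.56 to 1.92 at late 1C and 1.87 to 2.00 at early 2C, and 1.13 to 1.22 at late 2C. In mCherry embryos at late 2C it was 0.991 to 1.24. The 5 Duxbl libraries at late 2C had 1.70, 1.60, 1.85, 1.68 and 1.71, above all 12 control libraries of that stage. At early 2C Duxbl embryos had 1.84 to 2.01, where uninjected and mCherry embryos had 1.87 to 2.00 and 1.88 to 1.99. The summed level of these 31 genes was 1233 to 1838 CPM in Duxbl and 2630 to 5461 CPM in mCherry embryos at late 2C.

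**Figure D4:**
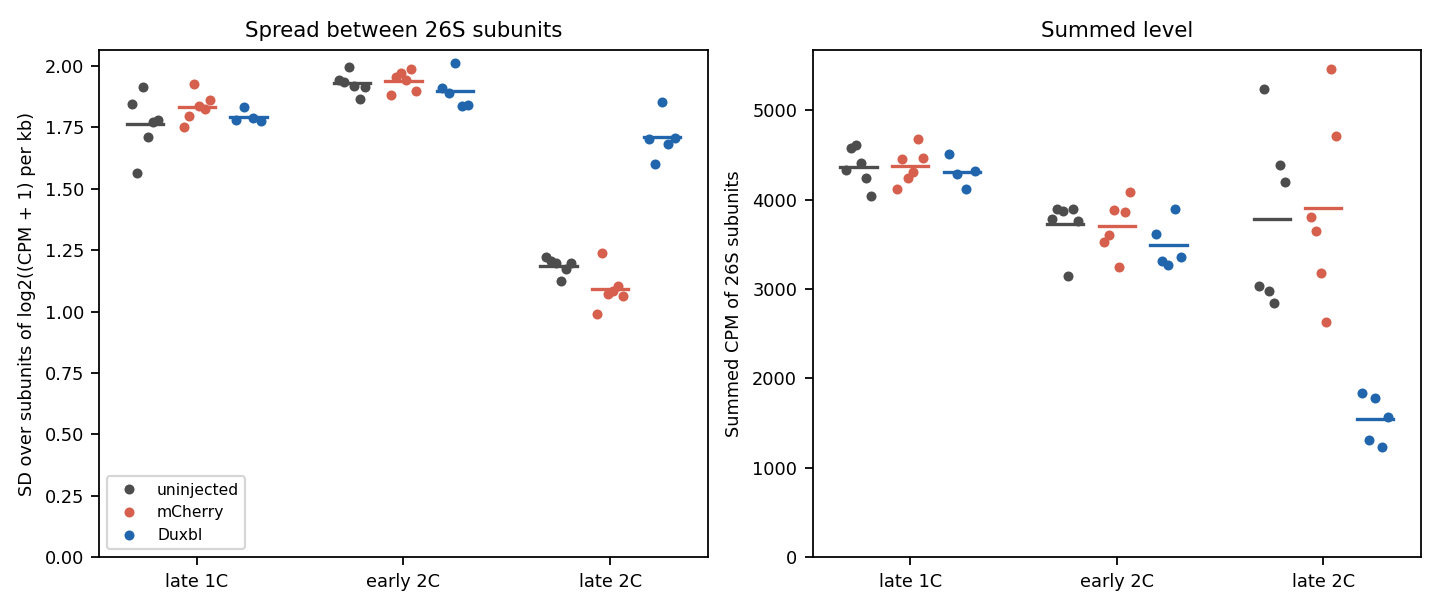
Left, spread between the 31 subunits of the 26S particle in each library (standard deviation of log2((CPM + 1) per kb)); right, their summed CPM; points are libraries and bars group means. The spread drops at late 2C in uninjected and mCherry embryos to at most 1.24, and stays at 1.60 or more in Duxbl embryos, whose summed level is also below all controls.

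Other genes of the pathway, in 4 lists chosen by function, were compared in the same way. Of 9 tested proteasome partners without a Psm symbol, 5 were lower and 2 higher in Duxbl than in mCherry embryos at late 2C. In this contrast 55.7% of all genes were called, 29.8% lower and 25.9% higher, and the counts of these short lists are given as a description. Adrm1, a ubiquitin receptor of the 19S particle, was at -3.66 ± 0.35 (adjusted p = 1.51e-08), and Ecpas, which binds the 26S proteasome, at 1.36 ± 0.25 (adjusted p = 8.54e-05). Between early and late 2C these 2 had, without injection, gone the other way, Adrm1 by 1.01 ± 0.29 and Ecpas by -1.73 ± 0.16. Of 4 genes for the transcription of proteasome genes, only Ngly1, which processes the factor Nfe2l1, was called, higher at 1.12 ± 0.47 (adjusted p = 0.0477). Among the other 3, named after their values were seen, Nfe2l1 itself was at 0.40 ± 0.27, Nfe2l2 at 0.42 ± 0.31 and the protease Ddi2 at -0.01 ± 0.31, none called.

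Of 6 genes for ubiquitin and its activation 3 were lower and none higher, against 29.8% and 25.9% of all genes. The largest difference was in Rps27a, which encodes ubiquitin fused to a ribosomal protein, at -4.12 ± 0.39 (means of 12.8 CPM in Duxbl and 195 CPM in mCherry embryos). The polyubiquitin gene Ubb, also named after its value was seen, was at 0.40 ± 0.20, not called. Of 10 shuttle and unfoldase genes 4 were lower and 1 higher, again against 29.8% and 25.9% of all genes. Named by rule were Zfand2a at -2.12 ± 0.29 and the shuttle Rad23b at 1.34 ± 0.23 (adjusted p = 3.70e-05). Without injection, between early and late 2C, 2 partners rose and 3 fell, 3 of the transcription genes fell, 3 of the ubiquitin genes rose and 2 fell, and 5 of the shuttle genes rose and 4 fell, where 57.1% of all genes were called, 30.8% higher and 26.3% lower.

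Promoter windows from 250 bases before to 50 after the start were matched in RefSeq (GRCm38.p6) for 40 of the 48 genes, in 43 windows. Of 6 motifs searched on both strands, the core of sites for ETS factors, CCGGAAG, was in 34.9% of the 43 windows and in 8.86% of all 32851. It was in the windows of 10 of the 26 matched genes called lower at late 2C in Duxbl embryos and of 4 of the 14 others, so it occurred on both sides of that call. Stretches around it are shown for 2 genes called lower (Psma6 and Psmd4) and 2 not called (Psme3 and Psmg1), each 5′ to 3′ on the gene's strand with the motif in capitals. They lie at chr12:55398673-55398719 (plus), chr3:95042713-95042759 (minus), chr11:101316086-101316132 (plus) and chr16:95991003-95991049 (minus).
Psma6: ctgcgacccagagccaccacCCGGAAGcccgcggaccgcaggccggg
Psmd4: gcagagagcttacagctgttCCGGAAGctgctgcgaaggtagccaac
Psme3: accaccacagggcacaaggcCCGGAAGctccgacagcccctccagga
Psmg1: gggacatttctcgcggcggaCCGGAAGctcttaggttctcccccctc

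The other motifs were near their share of all windows. TGACNNNGC, the core of the antioxidant response element through which Nfe2l1 and Nfe2l2 act, was in 14.0% of the 43 windows and 12.4% of all, CCAAT in 32.6% and 37.4%, CACGTG in 9.30% and 7.15%, TATAAA in 9.30% and 13.6%, and TGACGTCA in 0% and 1.79%. The antioxidant response core was matched in 2 of the 26 genes called lower at late 2C (Psmb5 and Psmd12) and in 4 of the 14 others: Psmd9 and Psme4, called higher, and Psmb6 and Psmc6, not called. Stretches of Psmd9 and Psmb6 lie at chr5:123228139-123228187 (plus) and chr11:70525328-70525356 (plus), and are shown because these genes did not follow most of the set.
Psmd9: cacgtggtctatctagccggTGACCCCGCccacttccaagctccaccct
Psmb6: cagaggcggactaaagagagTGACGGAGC
A match is a description of letters, not of a bound site, and windows without one say nothing of the factor.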

How the data were processed

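RNA from pools of 5 embryos was sequenced in 50 libraries of 9 groups (SMART-Seq v4 and Nextera XT, paired ends, without strand marks, per the labels' protocols). The submitters' processing notes name Trimmomatic 0.39, STAR 2.7.10a, Picard 3.0.0, featureCounts 2.0.4, DESeq2 1.36.0 and the mm39 build. The deposited values are whole numbers that appear to have been scaled per library and rounded by the authors, not raw counts, and were treated as a score: in 19 libraries some whole numbers from 1 to 20 never occur. No per-sample column was left unused, and no libraries were identical.

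Values were divided by library totals with trimmed-mean scaling (30% and 5% trimmed) and tested on log2(CPM + 1) with limma 3.58.1 in R 4.3.3, with a trended, robust variance, over genes at 10 or more in at least the number of libraries that its smallest group holds. P-values were adjusted by Benjamini-Hochberg over all genes tested, with a threshold of 0.05. Contrasts within a stage used its 3 groups, and courses and the interaction used all 9. The fits were also run on simulated counts in which few genes changed, as many up as down. Such data do not test a contrast like that of Duxbl and mCherry embryos at late 2C, where 55.7% of genes were called. The proteasome genes, the gene lists and the motifs were chosen with earlier results of these data known.

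Genes were named by rule: Psmb5, Psmc4 and Psmd6, the largest called rise and fall in each role, calls against the majority, every call where there were 5 or fewer, and every tissue-restricted subunit and activator. Psma5, Psmb1, Psmb3, Psmb4, Psmc1, Psmc2, Psmc6, Psmd3, Psmd7, Psmd8, Psmd11 and Psmg2 were named after their values were seen. In Duxbl and mCherry embryos at late 1C same-numbered libraries deviated together (4 pairs, r 0.18 to 0.31), a pairing seen in the data, and the blocked fit also called none of the 48. Same-numbered libraries also had the higher median correlation in the other comparisons within a stage. Alternatives changed the pseudocount, filter, scaling, weights, control, samples in the fit and libraries. Promoters came from RefSeq GRCm38.p6.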

Additional observations from a re-analysis of the deposited data

Results flagged for a closer look

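In 10 of the 126 groups of 4 to 6 libraries tested for 1 library far from the rest, the gap exceeded Dixon's 95% limit, and chance gives about 1 in 20 groups. The library was above the others for Psma6 in library 3 of uninjected embryos at late 1C (104 CPM, next 72.9); for Psma6 in library 3 of mCherry embryos at late 1C (89.0 CPM, next 67.6); for Psmb10 in library 3 of mCherry embryos at late 1C (3.37 CPM, next 0.784). The same held for Psmd14 in library 3 of uninjected embryos at late 1C (24.6 CPM, next 16.7), Psmd14 in library 7 of uninjected embryos at early 2C (11.8 CPM, next 9.61), Psmd14 in library 7 of mCherry embryos at early 2C (14.2 CPM, next 8.64) and Psmd9 in library 3 of Duxbl embryos at late 2C (80.8 CPM, next 60.2). It was below the others for Psmc4 in library 5 of mCherry embryos at early 2C (21.0 CPM, next 44.7), Psmd5 in library 1 of mCherry embryos at early 2C (58.7 CPM, next 80.2) and the summed level of the 48 genes in library 5 of uninjected embryos at early 2C (4733 CPM, next 5288). Library 3 at late 1C was the high one for Psma6 in both control groups, and library 7 at early 2C for Psmd14 in both. Their part in the results was not tested.

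The Duxbl difference at late 2C departed from that at early 2C for 20 of the 34 genes named by rule, by the interaction in limma, lower at late 2C for 17 of them. Of all genes tested 44.9% were called for this interaction, and some of the 34 were named for large differences at late 2C, so the count is a description. On the log2 scale the changes were Psma3 (-1.88), Psma6 (-2.63), Psmb5 (-4.90), Psmb7 (-1.88), Psmb9 (-2.54), Psmb10 (-5.19), Psmc3 (-3.02), Psmc4 (-4.30), Psmc5 (-2.27), Psmd6 (-2.70), Psmd12 (-1.67), Psmd13 (-2.99), Psmd14 (-4.20), Psmd5 (-1.47), Psmd9 (1.53), Psme1 (-3.91), Psme2 (-4.79), Psme4 (1.26), Psmg1 (0.70), Psmg3 (-3.36).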

How the results depend on the processing

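The comparisons that involve late 2C and had calls kept the direction of most of their calls under the settings run, with 30 to 40 of the 48 genes called for Duxbl against mCherry embryos at late 2C. Without any single library the calls numbered 29 to 34 there, 29 to 34 for the interaction, 28 to 34 for the Duxbl course and 35 to 39 for the uninjected course from early to late 2C, 5 to 6 for the uninjected course from late 1C to early 2C, 1 to 4 for the Duxbl course between those stages, and 0 in the other comparisons. The exceptions in size lay between late 1C and early 2C. Fitting the compared groups alone gave 13 calls in uninjected embryos and 9 in Duxbl embryos. Leaving out the libraries numbered 4 and 5 gave 4 in uninjected and 0 in Duxbl embryos. For Duxbl embryos it left only libraries 6 and 7 at late 1C and 3, 6 and 7 at early 2C. That setting was chosen after seeing the data, as was scaling within the stage. The cause was not tested.

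Library totals moved the median of all genes from -0.09 to -0.26 for Duxbl against mCherry embryos at late 2C, where the proteasome median went from -1.37 to -1.63, and from 0.03 to 0.15 in the uninjected course, where the proteasome median went from 0.44 to 0.81. For Duxbl against mCherry embryos at late 2C the proteasome median was -1.25 on the deposited scale and -1.90 with voom weights. The medians of all genes there were -0.01 and -0.32. Deviations of same-numbered libraries correlated at -0.12 to 0.36 over all pairs of groups. Only in Duxbl and mCherry embryos at late 1C did every pair exceed 0.1. In no pair of groups did every library correlate best with its own number. Within each stage the median was still higher for same-numbered than for other pairs. For mCherry and uninjected embryos it was 0.18 against -0.08, 0.19 against -0.05 and 0.20 against -0.06 from late 1C to late 2C. For Duxbl and mCherry embryos it was 0.24 against -0.13, 0.24 against -0.05 and 0.040 against -0.008. Between early and late 2C of uninjected embryos it was -0.008 against 0.007. The block is given as an alternative. With the replicate number as a block, 34 genes were called for Duxbl against mCherry embryos at late 2C, 39 in the uninjected course from early to late 2C, 31 in the Duxbl course and 32 for the interaction, and 7 and 5 between late 1C and early 2C in uninjected and Duxbl embryos.

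Some named genes without a call changed sign. With a pseudocount of 0.1 CPM these were Psmb11 -0.21 for the Duxbl course from early to late 2C, and Psma8 -0.64 for the interaction. With a pseudocount of 5 CPM these were Psmb11 0.0012 for Duxbl against mCherry embryos at late 2C, and Psma8 0.013, Psme1 0.019 for the Duxbl course from early to late 2C. With library totals these were Psmb6 -0.17, Psme3 -0.058 for Duxbl against mCherry embryos at late 2C, and Psma8 0.032, Psmc6 0.10 for the uninjected course from early to late 2C, and Psmd5 0.062 for the Duxbl course from early to late 2C, and Psmb6 -0.13, Psma8 -0.041, Psme3 -0.14 for the interaction. With the deposited scale these were Psma2 0.041 for Duxbl against mCherry embryos at late 2C, and Psma2 0.087 for the interaction. With median-of-ratios scaling these were Psmc6 0.032 for the uninjected course from early to late 2C, and Psma8 0.014, Psmd5 0.23 for the Duxbl course from early to late 2C. With voom weights these were Psmb11 -0.59 for the Duxbl course from early to late 2C, and Psma8 -1.96 for the interaction. With the replicate block these were Psma8 0.021 for the Duxbl course from early to late 2C. With the libraries numbered 4 and 5 left out these were Psmb6 -0.13, Psmb11 0.24 for Duxbl against mCherry embryos at late 2C, and Psmd14 0.12, Psmd5 0.071 for the Duxbl course from early to late 2C, and Psmb6 -0.051, Psmb11 0.38, Psmg2 0.059 for the interaction. With uninjected embryos as control these were Psma2 0.14, Psmb6 -0.052, Psmg4 0.46 for Duxbl against mCherry embryos at late 2C. Leaving out 1 library at a time gave Psma2 from -0.15 to 0.11, Psma8 from -0.25 to 0.31, Psmb11 from -0.62 to 0.16, Psmg4 from -0.58 to 0.061 for the interaction, Psma2 from -0.20 to 0.059, Psmb11 from -0.63 to 0.14, Psmb6 from -0.079 to 0.25, Psmg4 from -0.41 to 0.23 for Duxbl against mCherry embryos at late 2C and Psma8 from -0.39 to 0.20, Psmb10 from -0.45 to 0.085, Psmb11 from -0.29 to 0.49, Psmd14 from -0.76 to 0.072, Psmd5 from -0.15 to 0.090, Psme1 from -0.57 to 0.0013 for the Duxbl course from early to late 2C. The deposited values are scaled and rounded, so depth and counting error are not known, and levels of a few CPM, as for Psma8, Psmb8, Psmb9 and Psmb11, lie at the low end of the scale.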
